A study of Mus musculus with 6 samples.

Results

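The negative limb of the circadian clock was described in infarcted mouse hearts through 10 genes: Per1, Per2, Per3, Cry1, Cry2, Nr1d1, Nr1d2, Ciart, Bhlhe40 and Bhlhe41. Each was found by its Ensembl identifier among the 52550 gene rows of the deposited table, and all 10 passed the filter on low values (an FPKM, which is fragments per unit of transcript length and of library depth, of 0.5 or more in 3 libraries). The set was chosen for its place in the clock with the difference between the genotypes already known, so that difference is described below and not tested for these genes. RNA came from whole hearts of 6 C57BL/6 mice in 2 groups, 3 wild type (WT) and 3 of the genotype lncRNA-DRR-/- (KO), which by their label lack the long noncoding RNA of that name. No row of the table was taken as that RNA, so the genotype labels were not checked by its level. All 6 mice had the left anterior descending coronary artery tied permanently at 8 weeks of age and were 10 weeks old at sampling, 2 weeks after the infarction. The sources used here do not say how the allele was made, at which hour the hearts were taken, or whether litters or batches differed. Genotype and hour of sampling therefore cannot be told apart in any value of a clock gene. The replicates are separate libraries, and nothing says how many litters or sessions they came from, so the p-values below measure the spread between these samples.

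The clock of most mammalian cells is a loop of transcription. A pair of activators, BMAL1 (encoded by Arntl) with CLOCK or NPAS2, binds E-box sequences and switches on the genes of its own repressors. PER and CRY proteins then gather in a complex that enters the nucleus and silences the activators, CIART (also called CHRONO) and the DEC proteins of Bhlhe40 and Bhlhe41 repress at the same E-boxes, and the nuclear receptors REV-ERB alpha (Nr1d1) and REV-ERB beta (Nr1d2) repress Arntl itself. In the heart this loop runs in the muscle cells and gives a daily rhythm to metabolism and to ion channels, and its repressors do not all peak at the same hour of the day.

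Approximate depth, read from the product of FPKM and length that single-transcript genes showed most often, lay between 5189000 fragments (WT replicate 3) and 9398000 fragments (WT replicate 1). The tissue label fitted its markers: 7 cardiac muscle genes summed to 8143 to 10555 in WT and 6538 to 10014 FPKM in KO. Rag1, Dntt, Sftpc, Sftpb, Scgb1a1 and Ucp1, which mark thymus, lung and brown fat, were listed at 0 in all 6 libraries. Other markers on such lists were not all at 0. The 5 fat markers summed to 15.4 to 42.8 in WT and 20.9 to 28.3 FPKM in KO, with Cfd alone from 0.206 to 24.4 FPKM. The 4 skeletal muscle markers summed to 0.0573 to 6.47 in WT and 0.242 to 1.77 FPKM in KO. The sums of the lung and thymus lists stayed at or below 0.465 FPKM. KO replicate 3 carried Xist at 25.6 FPKM against at most 0.0742 FPKM in the others, and Eif2s3y, a Y-linked gene, was listed at 0 there and stood at 12.3 to 13.7 FPKM in the other 5, so it reads as female and the others as male. Differences without that library are given beside those of the repressors and of the other clock genes called. Blood cell markers were lower in KO: 6 neutrophil markers summed to 49.9 to 73.7 in WT and 20.4 to 33.9 FPKM in KO, 5 T cell markers to 4.09 to 7.22 and 2.09 to 2.87 FPKM, and 5 B and plasma cell markers to 21.7 to 80.9 and 10.1 to 19.2 FPKM. Macrophage markers overlapped (336 to 502 and 319 to 453 FPKM), as did 6 fibroblast markers (800 to 1574 and 918 to 1846 FPKM) and 5 erythroid markers (6301 to 11040 and 4403 to 7276 FPKM). The sum of 5 endothelial markers was higher in KO without overlap (384 to 410 and 424 to 481 FPKM). Among them only Fabp4 was higher without overlap (114 to 133 in WT and 158 to 219 FPKM in KO). Kdr was lower, and Pecam1, Cdh5 and Tie1 overlapped. The part of these cell types in the values below was not tested, and in whole tissue fewer cells of a type cannot be told apart from less RNA per cell.

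The bases upstream of the repressor genes are shown because the loop acts there. RefSeq promoter windows (GRCm38.p6) were matched for 8 of the 10 genes (not Per2 and Bhlhe40), and the 250 bases before each start were searched on both strands. The E-box CACGTG was present upstream of Per1, Cry1, Ciart and Bhlhe41, which is 4 of 8 genes, against 6.02% of 32851 windows over all genes. The window of a second start of Per1 held no E-box, so the repressors were counted by gene and the background by window. Ciart carried 3 copies, a number reached by 20 of all windows (0.0609%). The single-mismatch form CACGTT, called the E-prime box, was present upstream of Cry1, Cry2 and Nr1d1 (3.85% of all windows). The D-box TTATGTAA, the binding sequence of DBP, TEF, HLF and the repressor NFIL3, occurred at 2 places upstream of Per3 and in no other of the 8 (0.819% of all windows). None of the 8 held the cyclic AMP response element TGACGTCA (1.55% of all windows), the REV-ERB and ROR cores TAGGTCA or TGGGTCA (5.38%), or the glucocorticoid response element, which is GNACA, 3 bases of any kind and TGTNC (0.387%) in these bases, and Nr1d2 held none of the 6 motifs. No 2 matches overlapped. A match is a run of letters and not a measured binding site. The sequences of the 4 genes with the E-box, and of Per3, which was added after its matches were seen, run 5′ to 3′ along the strand of the gene, with these boxes in capitals and without bases that GENCODE places in an exon of the gene:
Ciart chr3:95882252-95882478 (minus strand): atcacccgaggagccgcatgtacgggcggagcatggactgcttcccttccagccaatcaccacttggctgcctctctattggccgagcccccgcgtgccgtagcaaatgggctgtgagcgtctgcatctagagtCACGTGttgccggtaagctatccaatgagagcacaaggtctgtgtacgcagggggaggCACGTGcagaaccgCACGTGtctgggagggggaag
Per1 chr11:69098699-69098947 (plus strand): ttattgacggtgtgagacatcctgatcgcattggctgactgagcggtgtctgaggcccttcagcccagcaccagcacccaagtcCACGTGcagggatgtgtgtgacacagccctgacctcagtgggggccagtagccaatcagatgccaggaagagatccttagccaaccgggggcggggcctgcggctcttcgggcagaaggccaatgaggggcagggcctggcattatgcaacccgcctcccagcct
Cry1 chr10:85185065-85185304 (minus strand): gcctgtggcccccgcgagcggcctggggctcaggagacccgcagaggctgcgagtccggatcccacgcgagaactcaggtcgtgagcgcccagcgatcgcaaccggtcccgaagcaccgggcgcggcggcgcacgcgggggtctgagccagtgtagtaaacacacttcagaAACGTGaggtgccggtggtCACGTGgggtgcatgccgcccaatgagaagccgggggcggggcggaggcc
Bhlhe41 chr6:145865559-145865670 (minus strand): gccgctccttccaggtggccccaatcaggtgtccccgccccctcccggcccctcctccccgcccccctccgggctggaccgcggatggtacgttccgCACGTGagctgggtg
Per3 chr4:151044666-151044915 (minus strand): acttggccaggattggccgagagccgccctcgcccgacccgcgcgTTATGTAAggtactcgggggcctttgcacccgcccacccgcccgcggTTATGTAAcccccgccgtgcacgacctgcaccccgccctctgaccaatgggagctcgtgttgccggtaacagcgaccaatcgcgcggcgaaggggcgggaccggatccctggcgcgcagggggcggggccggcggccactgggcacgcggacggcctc

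**Figure D1:**
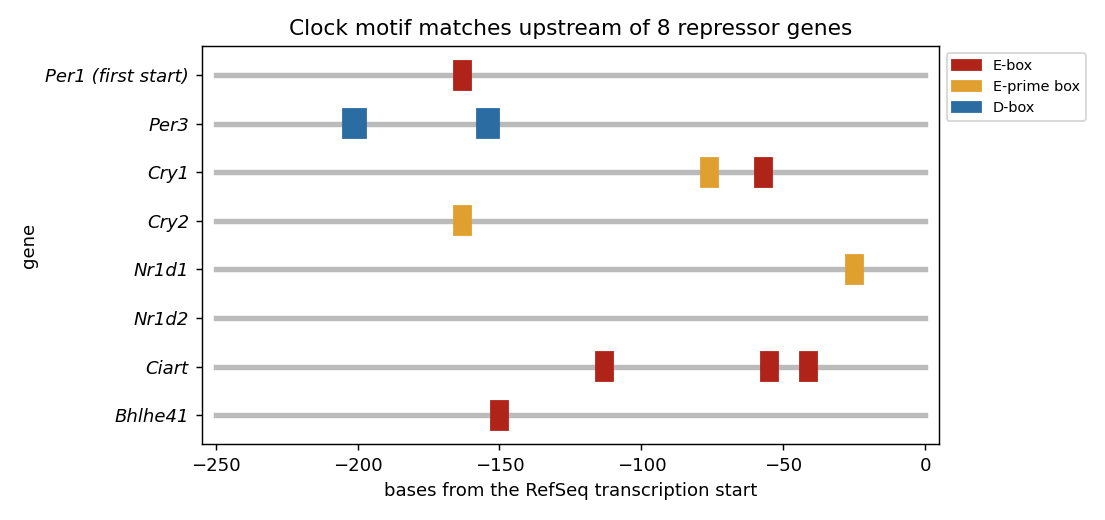
Matches to the E-box (red), the E-prime box (orange) and the D-box (blue) in the 250 bases before the RefSeq start of 8 repressor genes; the horizontal axis is the distance from the start in bases, and for Per1 the first of its 2 starts is drawn. Ciart has 3 E-boxes, Per3 has 2 D-boxes and Nr1d2 has no match.

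Counted from the start, the 3 E-boxes of Ciart begin at bases -116, -58 and -44, and those of Cry1, Bhlhe41 and Per1 at -60, -153 and -166. The E-prime boxes begin at -79 in Cry1, -166 in Cry2 and -28 in Nr1d1. The D-boxes of Per3 begin at -205 and -158. Differences between genotypes in log2, KO minus WT, are defined below. With an E-box in this window they were 2.60 for Per1, 1.94 for Ciart, 0.95 for Bhlhe41 and -0.48 for Cry1. Without it they were 2.16 for Nr1d2, 2.06 for Per3, 1.29 for Nr1d1 and 0.60 for Cry2. The ranges overlapped, and the part of the box in these differences was not tested.

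Of the 10 repressors, 9 were higher in KO hearts and Cry1 was lower. The PER genes, Nr1d2 and Ciart stood 4.77 to 7.01 times as high in KO by the ratio of means, Nr1d1, Bhlhe41 and Bhlhe40 1.96 to 2.54 times, and Cry2 1.56 times. Cry1 was 1.48 times as high in WT as in KO. Summed over the 10 genes, WT hearts held 47.4 to 49.1 FPKM and KO hearts 122 to 164 FPKM. The median log2 difference of the 10 was 1.62, beside -0.004 over all 14656 genes tested. By limma over all genes, 6 of the 10 had an adjusted p under 0.05 (Per1, Per2, Per3, Nr1d2, Ciart and Bhlhe40), all higher in KO, where the background was 0.375% of genes in either direction and 0.273% higher in KO. In all 10 the FPKM ranges of the genotypes were separate, which held for 12.8% of all genes tested. Because the genes were chosen with this contrast known, both counts are descriptions. Differences below are in log2(FPKM + 0.5) after scaling, KO minus WT, with the standard error of the fit over 3 hearts per genotype; this scale understates the change of the low genes Per3, Ciart and Per2.

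**Figure D2:**
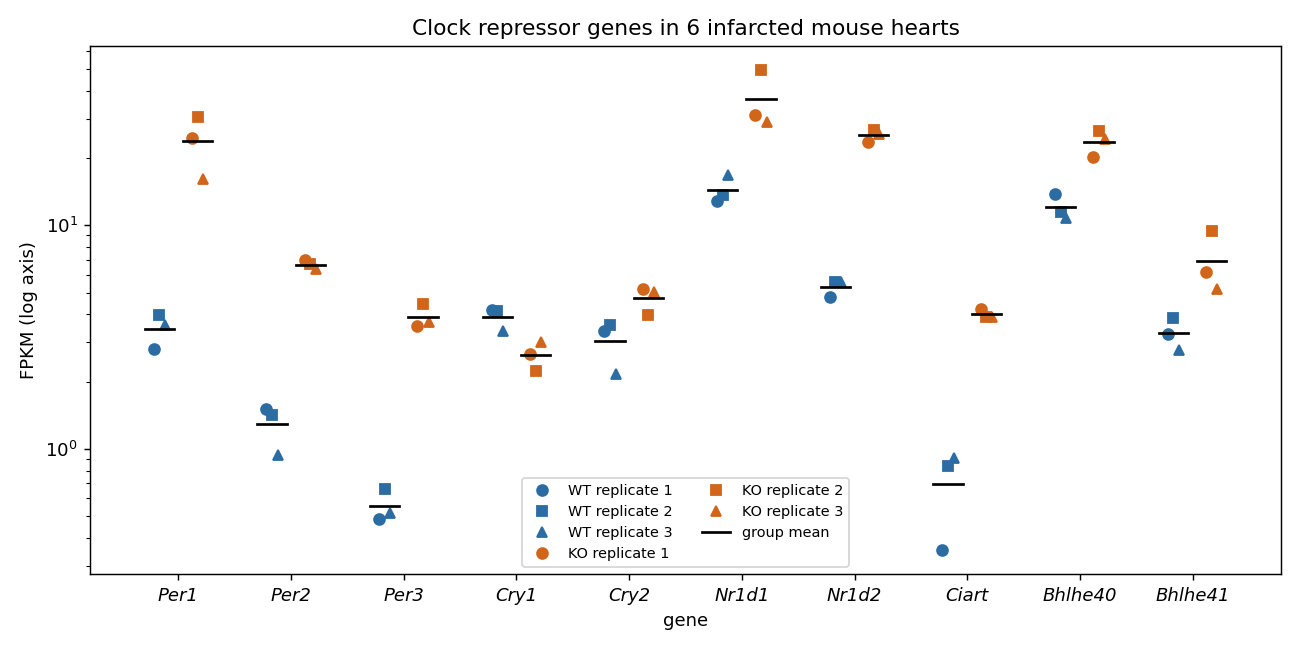
FPKM of the 10 repressor genes on a log axis in each of the 6 hearts (blue, WT; orange, KO; symbols, replicates 1 to 3; black bars, means of 3). KO points lie above WT points for 9 genes and below them for Cry1, with narrow gaps for Cry1 and Cry2 and wide ones for the PER genes, Nr1d2 and Ciart.

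The PER genes encode the proteins that hold the repressor complex together. Per1 (chromosome 11, 69095217 to 69109960, plus strand, GRCm38) is also known as a gene that hormones and cyclic AMP switch on within the hour. Per1 stood at 2.79, 3.97 and 3.57 FPKM in WT replicates 1 to 3 and at 24.6, 30.6 and 16.1 FPKM in KO replicates 1 to 3. The lowest KO heart was 4.05 times the highest WT heart, and KO replicate 3 was the low one of the KO group. The difference of Per1 was 2.60 ± 0.24, and 2.83 ± 0.19 without KO replicate 3. Without KO replicate 1 its adjusted p was no longer under 0.05.

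Per2 (chromosome 1, 91415982 to 91459324, minus strand) encodes a PER protein that daily rhythms of behaviour need. It stood at 1.51, 1.42 and 0.938 in WT and at 6.99, 6.68 and 6.35 FPKM in KO. The KO hearts were close to one another (coefficient of variation 4.74%), and the difference was 2.03 ± 0.15 with all libraries and 2.05 ± 0.18 without KO replicate 3. Per3 (chromosome 4, 151003652 to 151044665, minus strand), the member of the family that the core loop can most easily spare, stood at 0.488, 0.662 and 0.517 in WT and 3.55, 4.44 and 3.70 FPKM in KO. Its ratio of means, 7.01, was the highest of the 10, and the lowest KO heart was 5.37 times the highest WT heart. The difference was 2.06 ± 0.15, and 2.08 ± 0.18 without KO replicate 3, and it moved to 2.62 and 1.66 with a pseudocount of 0.1 and 1. These low levels rest on few fragments, about 28, 32 and 16 for Per3 in the WT libraries.

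The 3 PER genes kept the same order in every heart, with Per1 highest and Per3 lowest. Per1 made up 58.3%, 65.6% and 71.0% of their summed FPKM in WT and 70.0%, 73.4% and 61.5% in KO. The share of Per3 was 10.2%, 11.0% and 10.3% in WT and 10.1%, 10.6% and 14.1% in KO. The sum itself was 4.78 to 6.05 in WT and 26.1 to 41.8 FPKM in KO, so the family was higher as a whole while the shares of all 3 genes overlapped between the genotypes.

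The cryptochromes CRY1 and CRY2 are the subunits of the complex that block the activators directly, and they differed in opposite directions. Cry1 (chromosome 10, 85131700 to 85185064, minus strand) stood at 4.19, 4.14 and 3.37 in WT and 2.65, 2.23 and 3.02 FPKM in KO. The gap was narrow, with the lowest WT heart 1.12 times the highest KO heart. The difference of Cry1 was -0.48 ± 0.16, and -0.58 ± 0.16 without KO replicate 3. Cry2 (chromosome 2, 92403646 to 92434043, minus strand) stood at 3.36, 3.57 and 2.16 in WT and 5.20, 3.97 and 5.01 FPKM in KO, a difference of 0.60 ± 0.20 that was 0.54 ± 0.23 without KO replicate 3. Its gap was as narrow, at 1.11 times, and neither cryptochrome reached the adjusted threshold.

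Within each heart the balance of the cryptochromes was reversed between the genotypes. The ratio of Cry1 to Cry2, which does not depend on scaling between libraries, was 1.25, 1.16 and 1.56 in WT and 0.510, 0.563 and 0.602 in KO. Cry1 was thus the higher of the pair in all 3 WT hearts and the lower in all 3 KO hearts (mean ratio 1.32 ± 0.211 and 0.559 ± 0.0462, SD, n = 3 each). Both genes had separate ranges in opposite directions, so a separation of their ratio follows from those values. The ratio is given as description.

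The REV-ERB receptors repress Arntl and other genes through ROR elements, and haem binds them. Nr1d2 (chromosome 14, 18204054 to 18239127, minus strand) stood at 4.80, 5.56 and 5.59 in WT and 23.6, 26.7 and 25.7 FPKM in KO. Both groups were tight, with coefficients of variation of 8.42% and 6.32%, and the lowest KO heart was 4.22 times the highest WT heart. The difference of Nr1d2 was 2.16 ± 0.13, and 2.14 ± 0.15 without KO replicate 3. Nr1d1 (chromosome 11, 98767932 to 98775333, minus strand) was the most abundant repressor in both genotypes, at 12.8, 13.6 and 16.8 in WT and 31.0, 49.5 and 29.1 FPKM in KO. KO replicate 2 stood far above the other KO hearts, the difference was 1.29 ± 0.21, and the adjusted threshold was not reached. Without KO replicate 3 the difference was 1.42 ± 0.23.

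The ratio of Nr1d1 to Nr1d2 was 2.67, 2.45 and 3.01 in WT and 1.31, 1.85 and 1.13 in KO, without overlap. Nr1d1 was the higher of the pair in all 6 hearts, by a smaller factor in KO. The 3′ ends of Nr1d1 and of the thyroid hormone receptor gene Thra overlap on opposite strands and their exons share 263 bases, 8.55% of the exon bases of Nr1d1. The sources used here do not say whether strand was used in quantification, and without strand fragments from these bases cannot be told apart. Thra stood at 24.2, 23.5 and 22.2 in WT and 18.8, 19.7 and 16.0 FPKM in KO, lower where Nr1d1 was higher, and was not called (difference -0.34 ± 0.11, limma adjusted p = 0.43).

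Ciart (chromosome 3, 95878503 to 95882251, minus strand), whose protein binds BMAL1 and represses at E-boxes, was the lowest repressor but Per3 in WT. It stood at 0.352, 0.834 and 0.912 in WT and 4.20, 3.90 and 3.87 FPKM in KO. The KO hearts were almost level, while WT replicate 1 lay below the other WT hearts. In WT these values correspond to about 6, 13 and 9 fragments and in KO to about 57, 62 and 52, so the WT level and any fold built on it are imprecise. The difference of Ciart was 1.94 ± 0.23, and 1.95 ± 0.28 without KO replicate 3, and it was 2.45 with a pseudocount of 0.1 and 1.57 with 1. Its adjusted p was not under 0.05 when WT replicate 2, or any one of the KO replicates, was left out, nor with no filter on low values or with a replicate block.

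Bhlhe40 and Bhlhe41 encode DEC1 and DEC2, basic helix-loop-helix repressors that compete for E-boxes and that also answer to low oxygen and cytokines. Bhlhe40 (chromosome 6, 108660629 to 108666925, plus strand) stood at 13.8, 11.5 and 10.8 in WT and 20.2, 26.4 and 24.2 FPKM in KO. The difference was 0.96 ± 0.12, with the lowest KO heart 1.46 times the highest WT heart. Its adjusted p was under 0.05 with all 6 libraries and in no fit that left 1 out, nor with all 6 under no scaling, no filter on low values, no mean-variance trend or a replicate block. The difference stayed between 0.92 and 1.03 in all 16 alternatives. Bhlhe41 (chromosome 6, 145858243 to 145865558, minus strand) stood at 3.25, 3.85 and 2.78 in WT and 6.18, 9.42 and 5.18 FPKM in KO, a difference of 0.95 ± 0.20 that did not reach the threshold. Without KO replicate 3 the difference was 0.92 ± 0.13 for Bhlhe40 and 1.11 ± 0.19 for Bhlhe41. The ratio of Bhlhe40 to Bhlhe41 overlapped between the genotypes, at 2.98 to 4.24 in WT and 2.80 to 4.67 in KO. A gene model on the other strand, Gm43909, shares 1280 exon bases with Bhlhe41 and stood at 0.610 to 1.58 FPKM over the 6 libraries.

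**Figure D3:**
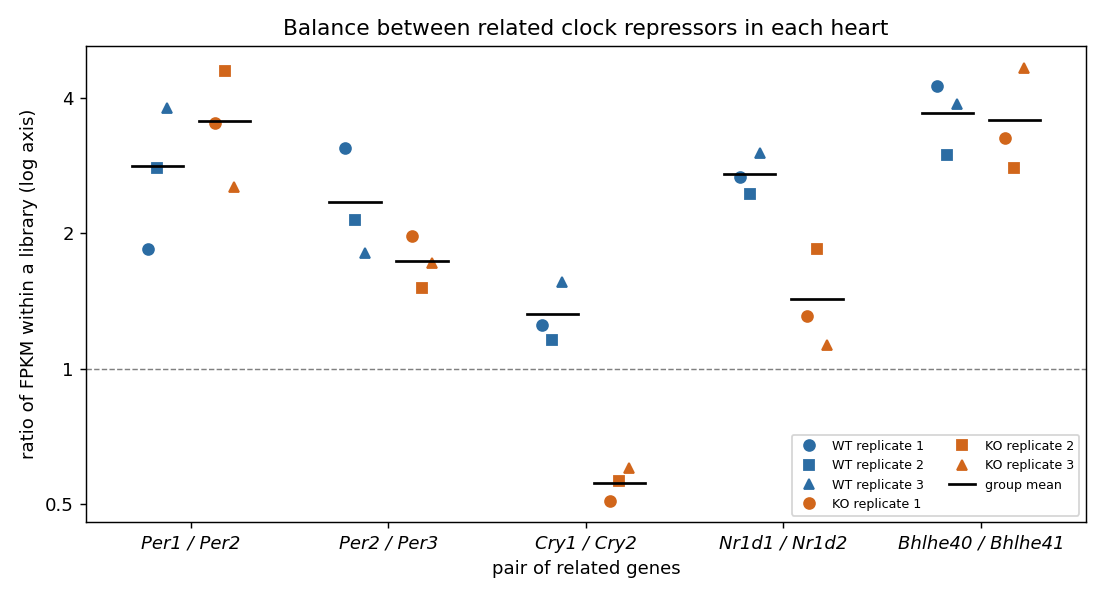
Ratio of FPKM between related repressor genes within each library on a log axis (blue, WT; orange, KO; symbols, replicates; black bars, means of 3; dashed line, equal levels). Cry1 / Cry2 lies above 1 in WT and below 1 in KO, Nr1d1 / Nr1d2 is lower in KO without overlap, and the other 3 ratios overlap between the genotypes.

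The order of the repressors by FPKM, which is a level per transcript length, differed between the genotypes. In WT, Nr1d1 (14.4 ± 2.11 FPKM, SD, n = 3) and Bhlhe40 (12.0 ± 1.57) were highest and overlapped, and Nr1d2 (5.32 ± 0.448) followed apart from both. Cry1 (3.90 ± 0.460), Per1 (3.44 ± 0.600), Bhlhe41 (3.30 ± 0.535) and Cry2 (3.03 ± 0.760) came next, each overlapping its neighbour, then Per2 (1.29 ± 0.306) apart from its neighbours, and Ciart (0.699 ± 0.303) and Per3 (0.556 ± 0.0933), which overlapped. In KO, Nr1d1 (36.5 ± 11.3 FPKM, 29.1 to 49.5) stood first, and its range overlapped that of Per1 (16.1 to 30.6) though not that of Nr1d2. Nr1d2 (25.3 ± 1.60), Per1 (23.8 ± 7.32) and Bhlhe40 (23.6 ± 3.18) overlapped one another. Bhlhe41 (6.93 ± 2.22, lowest heart 5.18) overlapped both Per2 (6.67 ± 0.317) and Cry2 (highest heart 5.20), and overlap was also found among Cry2 (4.72 ± 0.663), Ciart (3.99 ± 0.185) and Per3 (3.89 ± 0.474). Cry1 (2.63 ± 0.391), above 6 of the other repressors in WT, was last in KO, below every KO value of the other 9 genes.

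Within a genotype the repressors differed in how tightly they were held, a measure that the choice of the genes did not use. The within-genotype SD on the log2 scale was 0.114 for Bhlhe40, 0.117 for Per3 and 0.141 for Nr1d2, at the 13.8, 14.7 and 22.7 percentiles of all genes tested. It was 0.359 for Per1, 0.323 for Ciart and 0.310 for Nr1d1, at the 80.3, 75.3 and 72.9 percentiles. Per2, Cry1, Cry2 and Bhlhe41 lay between, at 0.166 to 0.281. The added 0.5 shrinks the spread of low genes on this scale, Per3 in WT among them. By the coefficient of variation of FPKM, Per3 stood at 16.8% in WT, beside 17.4% for Per1 and 14.7% for Nr1d1. In KO it stood at 12.2%, beside 30.8% and 30.9%. The spread of Ciart lay in WT, at 43.4%, where its values rest on about 6, 13 and 9 fragments. In KO the coefficient of Ciart was 4.63%, the lowest of the 10 genes. Among the KO hearts, KO replicate 2 was highest for 6 of the 10 genes (Per1, Per3, Nr1d1, Nr1d2, Bhlhe40 and Bhlhe41) and lowest for both cryptochromes. The same library had the lowest Myl2, a ventricular muscle gene, at 830 FPKM against 1388 and 1861 FPKM in the other KO hearts, and the highest Col1a1, a collagen gene, at 367 against 218 and 130 FPKM. The part of this shift in the spread of the repressors was not tested. Without KO replicate 2 all 10 genes kept the sign of their difference, as they did in each of the other 5 fits that left 1 library out.

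The rest of the clock was read from 4 lists of 40 genes, of which 37 were tested. By limma adjusted p under 0.05, 3 were called higher in KO and 2 lower, where 0.375% of all genes were called in either direction. By sign alone 21 were higher in KO and 16 lower. Among 5 tested activators, Arntl fell from 7.90 ± 1.72 to 0.683 ± 0.280 FPKM (SD, n = 3 each; difference -2.83 ± 0.19, limma adjusted p = 0.0027) and Npas2 from 4.34 ± 0.280 to 0.649 ± 0.127 FPKM (limma adjusted p = 0.0028), against a background of 0.102% of genes called lower in KO. Clock, the partner of BMAL1, stood at 7.88, 6.72 and 7.25 in WT and 3.18, 4.72 and 4.01 FPKM in KO and was not called (difference -0.80 ± 0.14, limma adjusted p = 0.087). Among 4 output factors that bind the D-box, Dbp rose from 1.98 ± 0.299 to 35.3 ± 6.09 FPKM (difference 3.86 ± 0.16, limma adjusted p = 0.00041) and Tef from 5.23 ± 0.303 to 18.2 ± 0.464 FPKM (difference 1.72 ± 0.13, limma adjusted p = 0.0028). Hlf differed by 1.45 ± 0.28 and Nfil3, which opposes these 3 at the D-box, by -0.98 ± 0.16 (limma adjusted p = 0.12 and 0.076).

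Among the enzymes that modify and degrade PER and CRY, few passed the test. Of 14 tested kinases, phosphatases and ubiquitin pathway genes, 1 was called higher in KO, where 0.375% of all genes were called. By sign alone 9 were higher in KO and 5 lower. Unadjusted limma p was under 0.05 for 2 of the 14 and for 1243 of all 14656 genes, so that count is no result about this list. The gene called was Usp2, which encodes a deubiquitinase and went from 5.63 ± 0.939 to 15.4 ± 0.727 FPKM (difference 1.39 ± 0.17, limma adjusted p = 0.027). That call ended with no filter on low values (limma adjusted p = 0.097) and without any single library but WT replicate 3 (limma adjusted p from 0.059 to 0.14). In the 5 fits that lacked such a library the difference stayed between 1.24 and 1.45. Csnk1d and Csnk1e, the casein kinases that mark PER for degradation, differed by 0.16 ± 0.12 and 0.16 ± 0.15 (limma adjusted p = 0.80 and 0.84). Ppp1cb, a catalytic subunit of protein phosphatase 1, stood at 10.9, 13.1 and 27.3 in WT and 33.2, 26.3 and 30.2 FPKM in KO, with overlap (difference 0.91 ± 0.35, limma adjusted p = 0.53). Of 14 corepressors and complex partners, 0 were called by limma, against a background of 0.375% of genes called. Unadjusted limma p was under 0.05 for 0 of them and for 1243 of all 14656 genes. Neither count is a result about this list. Their median difference was 0.01, and Ncor1 and Hdac3, through which REV-ERB represses, differed by -0.02 ± 0.13 and 0.12 ± 0.12 (limma adjusted p = 0.98 and 0.85).

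**Figure D4:**
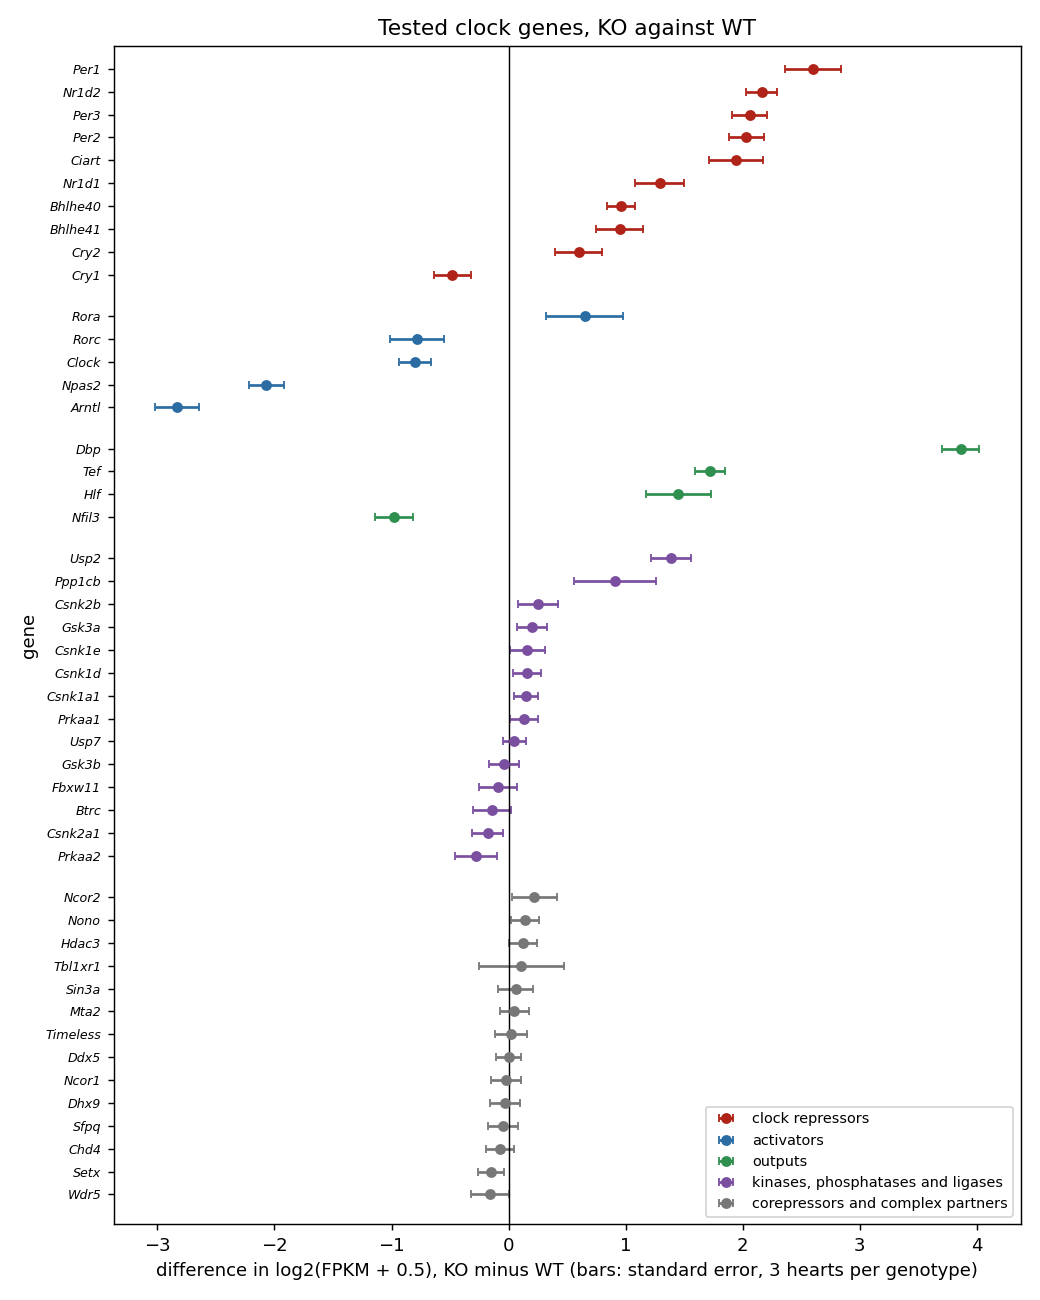
Difference in log2(FPKM + 0.5), KO minus WT, for the 10 repressors and the 37 other tested clock genes, grouped by role; points are the fitted differences and bars their standard errors (3 hearts per genotype). The repressors but Cry1 lie to the right of 0, Arntl and Npas2 far to the left, Dbp farthest to the right, and the corepressors around 0.

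Without KO replicate 3 the difference was -2.75 ± 0.21 for Arntl, -2.09 ± 0.18 for Npas2, 3.98 ± 0.16 for Dbp and 1.69 ± 0.15 for Tef, all 4 still called, and 1.40 ± 0.20 for Usp2, which was not.

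The repressor and activator arms were also set side by side within each heart. The ratio of Nr1d1 to Arntl was 1.30, 1.89 and 2.54 in WT and 60.8, 49.2 and 54.7 in KO. The ratio of Per1 to Arntl was 0.283, 0.551 and 0.538 in WT and 48.1, 30.5 and 30.2 in KO, so Arntl was above Per1 in all 3 WT hearts and below it in all 3 KO hearts. These ratios join genes chosen for their differences and are given as description.

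Profiles over the 6 libraries were ranked by nearness to the mean profile of the 10 repressors. The ranking took genes outside the clock lists that had a mean FPKM of at least 1 and a gene name of their own. The nearest 5 of these were Tob2, Kcna5, Dusp1, Ier3 and Sgk1. Nearness was the root mean square distance of log2 deviations from the own mean, 0.126 for Tob2 and 0.159 to 0.180 for the other 4. The repressors themselves lay 0.234 (Nr1d1) to 0.963 (Cry1) from their mean. Tob2, of the antiproliferative TOB family, stood at 7.87, 8.38 and 8.20 in WT and 17.5, 22.0 and 21.0 FPKM in KO. Kcna5, which encodes the potassium channel Kv1.5, stood at 10.5, 12.3 and 9.26 in WT and 21.4, 28.1 and 22.5 FPKM in KO. Like 9 of the 10 repressors, Cry1 being the exception, both were lower in every WT heart than in any KO heart. Dusp1, a MAP kinase phosphatase gene, went from 20.7 ± 2.08 to 58.4 ± 13.7 FPKM, Ier3, an immediate early gene, from 11.3 ± 1.45 to 24.9 ± 0.365 FPKM, and Sgk1, a kinase gene that glucocorticoids induce, from 10.4 ± 0.526 to 26.4 ± 5.39 FPKM (SD, n = 3 each). They were picked for this pattern, so no test is given.

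**Figure D5:**
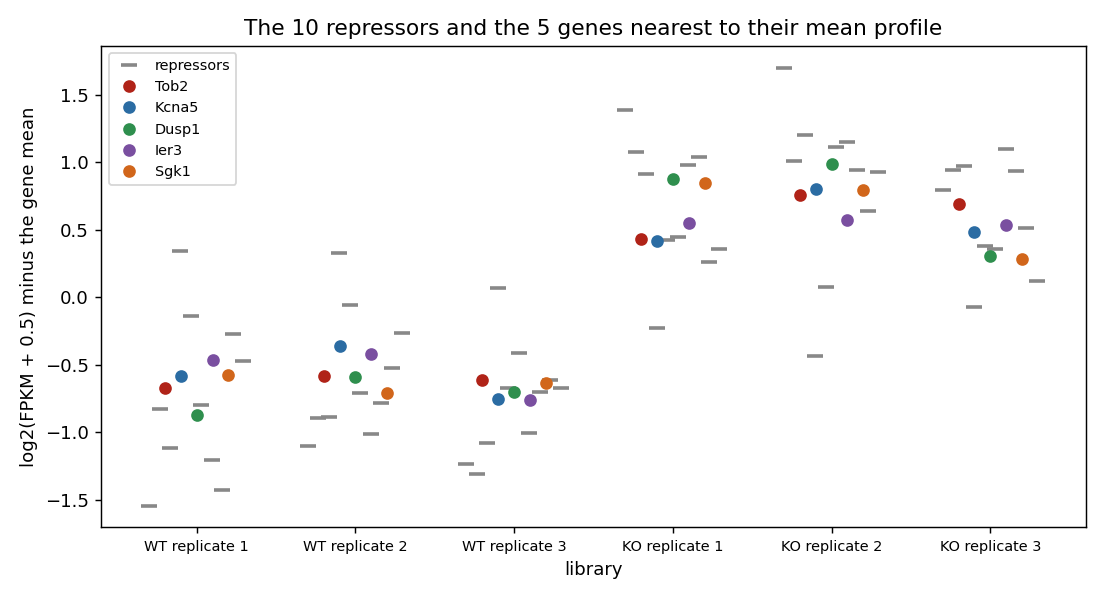
Deviation of log2(FPKM + 0.5) from the mean of each gene in the 6 libraries (grey dashes, the 10 repressors, offset sideways in the order Per1 to Bhlhe41; coloured points, the 5 nearest genes). All 5 nearest genes lie below 0 in the WT libraries and above 0 in the KO libraries, and the grey dashes that go the other way are those of Cry1.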

How the data were processed

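Total RNA of 6 whole hearts was prepared with an Illumina TruSeq kit, per the labels' protocols. The authors deposited FPKM per gene, as the values show, in a table titled as counts. Library totals lie between 442779 and 533319. Bowtie 0.12.2 and the builds mm8 and mm9 are named in the submitters' processing notes without a role, and the sources used here do not give the quantification tool or the annotation. Of 52550 rows, 52403 matched a GENCODE M21 (GRCm38) symbol by identifier, and no coordinate was converted.

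The 14656 genes that reached an FPKM of 0.5 in 3 libraries were scaled by trimmed means of log2 ratios (trims 0.3 and 0.05, factors 0.949 to 1.07). They were fitted as log2(FPKM + 0.5) on genotype with limma 3.58.1 in R 4.3.3 (mean-variance trend, two-sided, Benjamini-Hochberg over all genes, called under 0.05). The fit was tested on simulated data. Overlap and ratios use unscaled FPKM. Approximate fragments are FPKM times the longest coding transcript over the worth of 1 fragment.

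The members and lists were chosen with earlier results of these data known. Genes named were the 10 repressors, other listed clock genes that were called, Arntl, Clock, Npas2, Dbp and Thra, and the 5 nearest profiles. Those 5 were ranked among genes with a mean FPKM of at least 1 and a gene name of their own. Rows named by an identifier or by a Gm, Rik or AC number, or sharing a symbol, were left out of that ranking. Hlf, Nfil3, Ppp1cb, Csnk1d, Csnk1e, Ncor1 and Hdac3 were named after their values were seen. 1 gene of the lists is not reported here and is not counted in them. Motifs were searched in 250 bases before RefSeq starts. Alternatives were scaling, filter, pseudocount, fit, a replicate block, and leaving out each library.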

Additional observations from a re-analysis of the deposited data

How the results depend on the processing

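Of 14656 genes 55 were called, and this count was 20 with no filter on low values and 12 to 36 when 1 library was left out (12 without KO replicate 1, 16 without WT replicate 2, 26 without KO replicate 2 and likewise without WT replicates 1 or 3, and 36 without KO replicate 3). Of the 6 repressors called, 3 were called without KO replicate 1 (Per2, Per3 and Nr1d2) and 3 to 5 over the fits that left out 1 library; Per2, Per3 and Nr1d2 were called under each of the 16 alternatives. The cause was not tested, though fits with fewer samples have less precision by construction. The number of other clock genes called, 5, stayed within 1.5 times under every alternative. No difference of a repressor changed sign under the 16 alternatives, and those of Per2, Per3 and Ciart alone moved by more than the within-genotype SD, with pseudocounts of 0.1 and 1. With the replicate number as a block, 42 genes and 4 repressors (Per1, Per2, Per3 and Nr1d2) were called; Ciart, Bhlhe40 and Usp2 were not. The sources used here do not say whether same-numbered hearts were paired. Their deviations from the group means correlated at 0.008, -0.036 and 0.180 across genes, and those of differently numbered hearts at -0.202 to 0.193. With 3 hearts per genotype these values cannot decide whether same-numbered hearts shared a session or batch. The number of genes with each motif was the same in 200 bases before the start as in 250. Depth limits Ciart and Per3 in WT hearts most.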
